A study of Mus musculus with 12 samples.

Results

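The complement genes examined here were Cfi, Cfb, C3, C4b, C1qa, C1qb, C1qc, Cd55 and C2, 9 symbols chosen by name. Each was followed through every probe set that the platform annotation gives to it. The annotation gave 13 probe sets to 8 of the 9 genes, among 8949 genes in all. C3 has no probe set in the annotation used here and was not analysed here. Of the 13 probe sets, 10 carried 1 gene symbol and 3 carried several. C4b was measured only by probe sets given to both C4a and C4b, and Cd55 by 1 probe set of its own and 1 given to both Cd55 and Cd55b. A filter on low mean values over the 12 arrays kept 11 of the 13. The tests covered 9 features, namely the brightest probe set of each of 7 genes and the shared C4a and C4b and Cd55 and Cd55b probe sets, among 6400 features in all.

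The RNA came from normal intestine and from intestinal tumors of male Min/+ mice aged 91 days. All animals, those that gave the normal tissue included, carried the Min allele of Apc, which leads to intestinal adenomas. Each tissue was represented by diet #1, diet #2 and diet #3 and, within each diet, by a Dnmt+/- and a Dnmt+/+ genotype, with 1 array per combination. This gave 6 normal and 6 tumor arrays in 6 pairs, each pair sharing a sample code, a diet and a genotype. The labels name neither the composition of the diets nor the Dnmt gene nor the gut segment, and do not say whether a code stands for 1 animal or whether tumors were pooled. P-values here thus reflect how these samples scatter, whatever share of that is technical, and the number of arrays limits their precision.

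Intensities were brought to a common distribution by quantile normalization, raised to a floor of 44.8 and taken to log2. Levels below are normalized intensities, and differences are log2 values of tumor minus normal with their standard error from limma. The 4 arrays of diet #1 had been deposited unscaled, with means of 306 to 403 and between 40.9% and 46.0% of values at 50, and the other 8 with a mean of 1000, so diet #1 and this format cannot be told apart. Markers of epithelium and of fibroblasts were summed over each array. Neither sum overlapped between tissues: the epithelial sum was 77284 to 92404 in normal and 118014 to 126830 in tumor, and the fibroblast sum 7205 to 9037 and 11436 to 14091. Of 10 markers tested in each list, 5 of epithelium and 6 of fibroblasts rose and 0 fell, against 18.2% of all features higher. Vil1, Cdh1, Krt20, Lgals4 and Epcam were the epithelial markers not called, so the sum does not measure the amount of epithelium. The sum of adipocyte markers was 1865 to 2839 in normal and 1217 to 1458 in tumor. The normal arrays of diet #2 stood apart by exocrine pancreas genes, with sums of 160234 and 171983 against 1048 to 2716 on the other 10 arrays.

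Complement is a cascade of plasma proteins that marks microbes and damaged cells for uptake or lysis. C1q, built from the C1qa, C1qb and C1qc chains, binds a target and starts the classical pathway, in which C4 and C2 form the enzyme that cleaves C3. Factor B, the product of Cfb, forms the corresponding enzyme of the alternative pathway. Factor I and the membrane protein Cd55 hold the cascade back: factor I cuts the active fragments of C3 and C4, and Cd55 speeds the decay of the enzymes that produce them. The liver makes most of the circulating components, macrophages make most C1q, and the gut epithelium makes some components of its own.

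Cfi and Cd55 rose in tumor, and the C1q, C2, C4 and Cfb probe sets did not pass the test in either direction. Cfi was 30.9-fold higher in tumor, a log2 difference of 4.95 that depends on a floor in 3 of 6 normal arrays and ran from 4.22 to 5.08 with other floors. The Cd55 probe set was 2.00-fold higher and the probe set shared by Cd55 and Cd55b 2.20-fold. The C1q chains C1qa, C1qb and C1qc had lower means in tumor by 0.30 to 0.34 on the log2 scale, C4a and C4b together a higher one by 0.44, and Cfb and C2 lower ones by 0.30 and 0.10, all short of the threshold. In counts, 3 of the 9 features tested rose at a limma adjusted p under 0.05 and 0 fell. Over all 6400 features 35.2% were called, 18.2% higher and 16.9% lower, so the share of members called was close to the background. At an unadjusted p under 0.05, 4 of the 9 lay higher and 3 lower, against 2844 of all 6400 features in either direction. The median difference over all features was 0.0015. In bulk tissue, fewer cells of a type and less RNA per cell cannot be told apart.

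**Figure D1:**
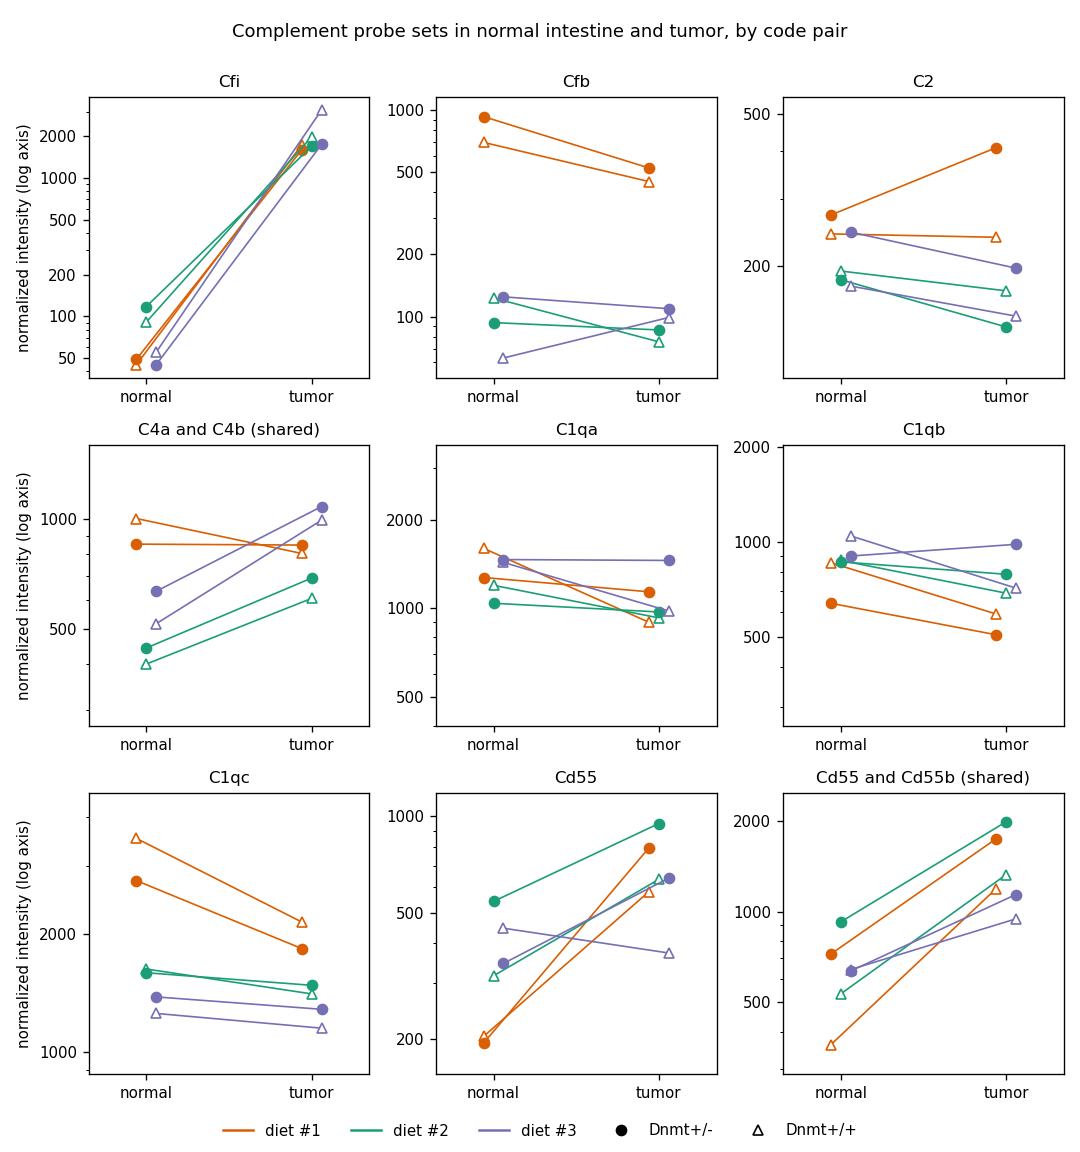
Normalized intensity (log axis, each panel with its own range) of the 9 complement features in normal intestine and tumor. Each line joins the normal and the tumor array of a code pair, coloured by diet, with filled circles for Dnmt+/- and open triangles for Dnmt+/+. Cfi runs from at most 118 in normal to at least 1599 in tumor, the C1qa and C1qc lines slope down in all 6 pairs, and the C4a and C4b lines slope up in the 4 pairs of diets #2 and #3.

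Cfi encodes factor I, the serine protease that inactivates C3b and C4b with the help of cofactors. Its level in the 6 normal arrays was lowest at 44.8, the floor, with a median of 52.1 and a highest value of 118. In the 6 tumor arrays the lowest was 1599, the median 1742 and the highest 3104. The tissues did not overlap, and the 6 pairs differed by 3.85 to 5.81. The fitted log2 difference was 4.95 ± 0.24 (SE over 6 arrays per tissue, limma adjusted p = 1.85e-06). Of all features, 6.17% had every tumor array above every normal array. Cfi was at the floor of the files or of the analysis in 3 of 6 normal arrays, so its fold, SE and p depend on that floor. The log2 difference was 4.22 ± 0.14 with a floor at the 40th percentile of values (limma adjusted p = 5.08e-08). With a floor at the 5th it was 5.08 ± 0.30 (limma adjusted p = 6.92e-06). The SE thus shrank as the floor rose, and the p-value is no exact measure. The log2 difference also moved with the scaling, to 4.31 with median scaling and 4.68 on the values as deposited. Cfi passed the filter on the mean over the 12 arrays through its tumor arrays. Its mean log2 level was 5.96 in normal and 10.91 in tumor. With no filter it was also called (limma adjusted p = 9.66e-06).

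The Cfi difference was present in every diet. Its pair differences averaged 5.15 for diet #1, 4.15 for diet #2 and 5.55 for diet #3. The lower value in diet #2 came with the higher normal arrays, 118 and 90.9, which are also those that carried pancreas genes, and the part of that tissue in the value was not tested. The difference between diets #3 and #2 in the tumor effect was 1.40 ± 0.37 (limma adjusted p = 0.263, n = 2 pairs per diet), short of the threshold, and 0.46 with a floor at the 40th percentile. By genotype, the mean of the 3 pairs was 4.72 in Dnmt+/- and 5.18 in Dnmt+/+, a difference of -0.46 ± 0.49 (limma adjusted p = 1). Of 10 hepatocyte markers listed, 9 were on the array and only 3 were tested. Of these 0 rose and 2 fell, against 18.2% higher and 16.9% lower over all features. Albumin (Alb) differed by 0.41 ± 0.66 (limma adjusted p = 0.668), and the sum of the list was 933 to 3182 in normal and 826 to 1236 in tumor. The sum of 3182 was that of the Dnmt+/+ normal array of diet #2, which carried pancreas genes, and the other normal arrays reached at most 1482. A liver source of Cfi was not tested.

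Cd55 encodes decay-accelerating factor, a lipid-anchored membrane protein. Its own probe set read 195 to 542 in normal, with a median of 331, and 373 to 950 in tumor, with a median of 638. The tissues overlapped, and tumor was higher in 5 of 6 pairs. The exception was the Dnmt+/+ pair of diet #3, with 446 in normal and 373 in tumor. The log2 difference was 1.00 ± 0.25 (SE over 6 arrays per tissue, limma adjusted p = 0.0129). The pair means were 1.77 for diet #1, 0.91 for diet #2 and 0.32 for diet #3. The call was lost without the diet #1 arrays (0.61, limma adjusted p = 0.0821) and without the diet #2 arrays (1.04, limma adjusted p = 0.0845).

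The probe set shared by Cd55 and Cd55b read 362 to 925 in normal, with a median of 639, and 947 to 1987 in tumor, with a median of 1259. These ranges did not overlap, and tumor was higher in 6 of 6 pairs. The log2 difference was 1.13 ± 0.17 (limma adjusted p = 0.000881). The pair means were 1.50, 1.21 and 0.70 in diets #1, #2 and #3, the same order as for the Cd55 probe set. After the mean of each diet was taken off, the 2 probe sets ran together over the 12 arrays (Pearson r = 0.90, Spearman rho = 0.88), as probe sets of a shared transcript may, and both carry the tissue difference. Cd55 and Cd55b lie next to each other on chromosome 1, and the array cannot say which of them the shared probe set measured. The difference between diet #1 and the mean of diets #2 and #3 in the tumor effect, a contrast chosen after the data were seen, was 1.16 ± 0.36 for Cd55 (limma adjusted p = 0.247) and 0.54 ± 0.29 for the shared probe set (limma adjusted p = 0.503). Neither passed, against 1.91% of all features.

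The promoter of Cd55 is shown because its transcript rose, while the set of promoters used held none for Cfi. The 250 bases before the start of the gene, from RefSeq on GRCm38.p6, are chr1:130462745-130462994 on the minus strand, written 5′ to 3′.
Cd55: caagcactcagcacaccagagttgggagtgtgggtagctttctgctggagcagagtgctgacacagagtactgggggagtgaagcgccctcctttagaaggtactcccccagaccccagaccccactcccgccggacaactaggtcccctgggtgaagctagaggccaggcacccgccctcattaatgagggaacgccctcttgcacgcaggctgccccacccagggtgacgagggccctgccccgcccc
This window was searched on both strands for the interferon gamma element (GAS, TTCNNNGAA), the interferon-stimulated response element (ISRE, GAAANNGAA), the C/EBP motif (TTGCNNAA) and the kappa-B motif. It held none of these letters. Of 32851 promoter windows of the same length, 7.02% held the GAS motif, 7.13% the ISRE, 9.56% the C/EBP motif and 7.25% the kappa-B motif.

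The C1q chains are the recognition unit of the classical pathway, and macrophages and dendritic cells are their main source. C1qa read 1042 to 1599 in normal, with a median of 1353, and 898 to 1455 in tumor, with a median of 977. Tumor was lower in 6 of 6 pairs, but the tissues overlapped. The Dnmt+/- tumor arrays of diets #1 and #3, at 1139 and 1455, lay above the lowest normal array. C1qb read 638 to 1043 in normal and 507 to 981 in tumor, and was lower in 5 of 6 pairs. The exception was again the Dnmt+/- pair of diet #3, with 901 in normal and 981 in tumor. C1qc read 1256 to 3518 in normal and 1152 to 2152 in tumor, and was lower in 6 of 6 pairs.

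The differences of the C1q chains were alike in size and missed the threshold. They were -0.34 ± 0.12 for C1qa (limma adjusted p = 0.0636), -0.30 ± 0.12 for C1qb (limma adjusted p = 0.0870) and -0.31 ± 0.12 for C1qc (limma adjusted p = 0.0759), each SE over 6 arrays per tissue. The call depended on the scaling, the filter, the variance model and 1 array. With median scaling, which shifted the median feature by -0.099, all 3 passed at -0.48, -0.40 and -0.49, with a highest limma adjusted p of 0.0235. On the values as deposited, where the median feature shifted by 0.13, they were -0.25, -0.17 and -0.26, with a lowest limma adjusted p of 0.234. C1qa also passed with the lowest 60% of features removed (limma adjusted p = 0.0423) and, with C1qc, under trended robust variances (limma adjusted p = 0.0429 and 0.0486). Without the Dnmt+/- tumor array of diet #3, C1qa and C1qb passed at -0.42 and -0.38 (limma adjusted p = 0.0284 and 0.0292).

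The C1qa pairs were also read by genotype, in the order of diets #1 to #3. The 3 Dnmt+/- pairs differed by -0.16, -0.10 and -0.01 and the 3 Dnmt+/+ pairs by -0.83, -0.37 and -0.55. The share of all features whose pairs separate by genotype in this way was not counted. The interaction was 0.49 ± 0.22 (limma adjusted p = 1, unadjusted p = 0.053 by limma), and of all 6400 features 0% were called for it, with 139 at an unadjusted p under 0.05. For C1qb the genotype means were -0.11 and -0.48, and for C1qc -0.26 and -0.35, with limma adjusted p = 1 for both interactions.

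**Figure D2:**
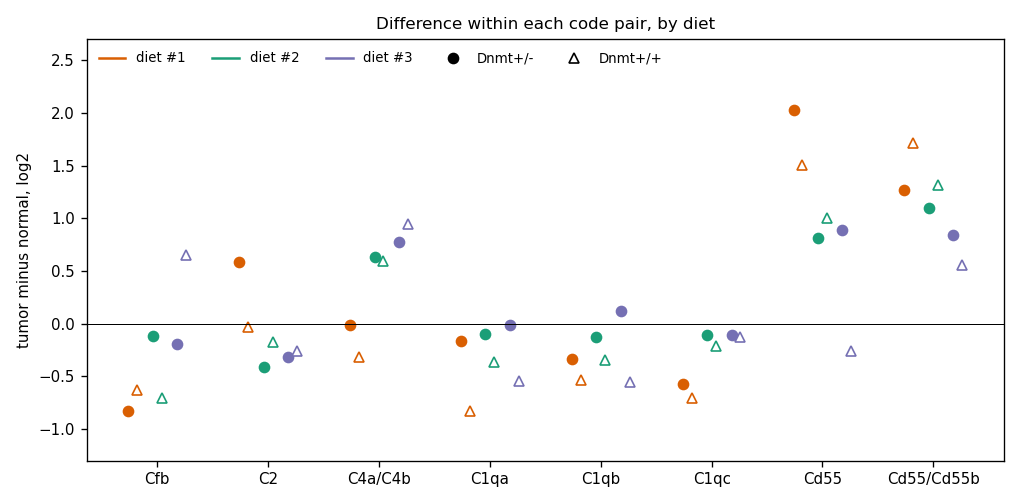
Log2 difference of tumor minus normal in each code pair (vertical axis) for 8 complement features, coloured by diet, with filled circles for Dnmt+/- and open triangles for Dnmt+/+. Cfi, at 3.85 to 5.81, lies above the range drawn. The Cd55 points lie highest in diet #1, at 2.03 and 1.51, and the C4a and C4b points are lowest there, at -0.01 and -0.32. The C1qa points run from -0.83 to -0.01.

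The C1q chains followed one another across arrays within the diets. After the mean of each diet was taken off, Pearson r over the 12 arrays was 0.82 for C1qa and C1qb, 0.84 for C1qb and C1qc and 0.75 for C1qa and C1qc, with Spearman rho of 0.85, 0.75 and 0.81. These values include the difference between tissues. Without that step r was 0.57, -0.33 and 0.24. C1qc read 2744 and 3518 in the normal arrays of diet #1 against 1256 to 1631 in the other normal arrays, while C1qb was lowest on the Dnmt+/- arrays of diet #1 in each tissue, at 638 and 507. The genes C1qb, C1qc and C1qa follow each other on chromosome 4.

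**Figure D3:**
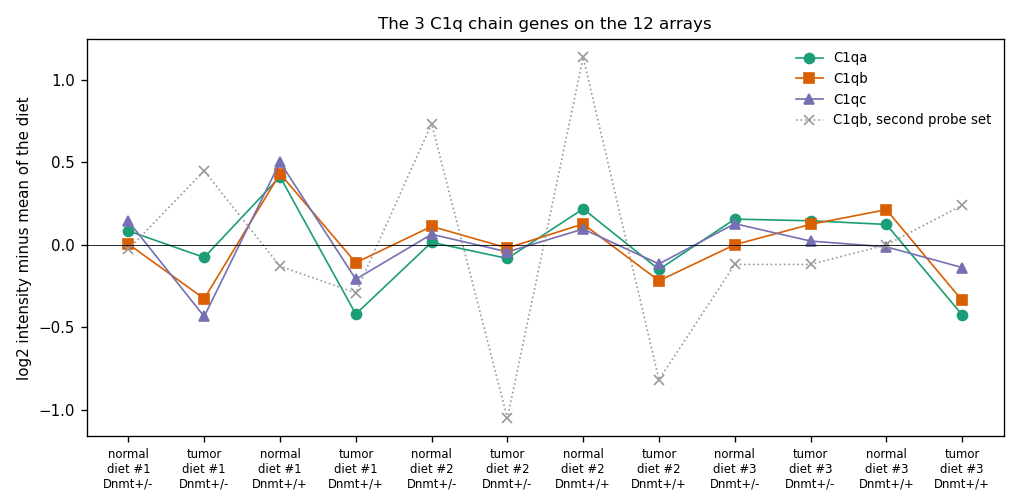
Log2 intensity minus the mean of the same diet (vertical axis) of the C1qa, C1qb and C1qc probe sets and of the second C1qb probe set on the 12 arrays (horizontal axis). Lines only help the eye follow a gene. The first 3 move together, with Pearson r of 0.75 to 0.84, while the second C1qb probe set departs from them mainly on the diet #2 arrays.

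The second C1qb probe set did not follow the first. It read 737 and 974 in the normal arrays of diet #2 against 180 to 321 in the other normal arrays and 181 to 446 in tumor. Its pair means were -1.87 in diet #2, 0.16 in diet #1 and 0.12 in diet #3, and its r with the first C1qb probe set was 0.11. The normal arrays on which it was high are those with the pancreas genes, and the part of that tissue was not tested. The first C1qb probe set, at 863 and 872 there, lay within the range of the other normal arrays.

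The promoters of C1qb and C1qc are shown because these chains moved together, while the set used held none for C1qa. They are the 250 bases before each start, from RefSeq on GRCm38.p6, chr4:136886201-136886450 for C1qb and chr4:136892915-136893164 for C1qc, both on the minus strand and written 5′ to 3′. Capitals mark a match to the kappa-B motif.
C1qb: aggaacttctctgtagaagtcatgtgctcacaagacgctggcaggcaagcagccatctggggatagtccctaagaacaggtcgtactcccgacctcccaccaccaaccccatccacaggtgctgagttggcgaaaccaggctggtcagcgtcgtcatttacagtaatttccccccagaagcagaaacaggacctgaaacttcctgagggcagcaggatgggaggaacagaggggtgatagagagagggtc
C1qc: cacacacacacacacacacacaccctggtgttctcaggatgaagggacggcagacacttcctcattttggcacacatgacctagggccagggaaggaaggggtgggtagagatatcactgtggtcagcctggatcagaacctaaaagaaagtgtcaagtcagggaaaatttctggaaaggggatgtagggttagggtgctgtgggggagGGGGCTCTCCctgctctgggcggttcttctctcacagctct
The same motifs were searched on both strands. The C1qc window held 1 kappa-B match, GGGGCTCTCC, from 41 to 32 bases before the start, a motif that 7.25% of all windows held. The C1qb window held none of the 4 motifs. A match is a stretch of letters and shows no binding.

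Macrophage markers moved in both directions between tissues. Of 14 listed, 13 were on the array and 10 were tested. Among these, 2 rose, 3 fell and 5 were not called, against 35.2% of all features called in either direction. The median difference of the tested markers was -0.32, and the part of any of them in the C1q values was not tested. Csf1r, the receptor for the macrophage growth factor, fell by 0.53 on the log2 scale (limma adjusted p = 0.0174), the cathepsin gene Ctss fell by 0.37 (limma adjusted p = 0.0126) and Cd68 fell by 0.42 (limma adjusted p = 0.0437, lost in 19 of 25 alternatives). The lysozyme gene Lyz2 rose by 0.66 (limma adjusted p = 0.0281), a call lost in 11 of 26 alternatives and a sign turned in 1 more. Cd14, a co-receptor for bacterial lipopolysaccharide, rose by 0.90 (limma adjusted p = 0.00505). The sum of the list, made up mostly of the bright Lyz2 and Ctss, overlapped, at 13378 to 16301 in normal and 13845 to 20003 in tumor. The listed markers Adgre1, Mrc1 and Fcer1g were dim in both tissues, between the floor of 44.8 and 130. Others were brighter, and the tested Csf1r probe set read 722 to 1256 in normal and 603 to 841 in tumor. The part of macrophage number in the C1q values was not tested.

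C4 and C2 make up the classical pathway's C3-cleaving enzyme. The brighter probe set shared by C4a and C4b read 400 to 1003 in normal, with a median of 575, and 606 to 1082 in tumor, with a median of 827. Tumor was higher in 4 of 6 pairs, those of diets #2 and #3. In diet #2 it went from 443 to 689 in the Dnmt+/- pair and from 400 to 606 in the Dnmt+/+ pair. In diet #3 the values went from 634 to 1082 and from 516 to 993. In diet #1 they were 853 and 848 in the Dnmt+/- pair and 1003 and 805 in the Dnmt+/+ pair. The diet #1 values cannot be told apart from the file format, so their level is not set against the other diets.

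The log2 difference of C4a and C4b over all arrays was 0.44 ± 0.17 (SE over 6 arrays per tissue, limma adjusted p = 0.0682), short of the threshold. Without the diet #1 arrays it was 0.74 ± 0.11 (limma adjusted p = 0.00295, n = 4 arrays per tissue). In diet #1 alone it turned to -0.16 (limma adjusted p = 0.675). With all arrays kept, it passed on the values as deposited (0.58, limma adjusted p = 0.0450) and with the lowest 60% of features removed (0.44, limma adjusted p = 0.0468). It passed in diet #2 alone as well (0.62, limma adjusted p = 0.0485). Leaving out a single diet #1 array was enough for a call in 3 cases: the Dnmt+/- tumor array (0.53, limma adjusted p = 0.0374), the Dnmt+/+ normal array (0.57, limma adjusted p = 0.0127) and the Dnmt+/+ tumor array (0.52, limma adjusted p = 0.0454). The tumor effect in diet #1 minus the mean of diets #2 and #3, the contrast chosen after these pairs had been seen, was -0.90 ± 0.18 (limma adjusted p = 0.0727), not called. RefSeq lists C4a as a transcribed pseudogene, and the array cannot divide the signal between C4a and C4b. The second probe set shared by them was at a floor of the files or of the analysis on all 12 arrays.

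C2 read 177 to 272 in normal, with a median of 218, and 139 to 408 in tumor, with a median of 185. Tumor was lower in 5 of 6 pairs, and the exception was the Dnmt+/- pair of diet #1, which went from 272 to 408. The log2 difference was -0.10 ± 0.16 (limma adjusted p = 0.664), and its sign turned on the values as deposited (0.12), in diet #1 alone (0.29) and without the Dnmt+/- tumor array of diet #2 (0.0066). The second C2 probe set was left out by the filter and lay at 44.8 to 132.

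Cfb, the enzyme component of the alternative pathway, showed its widest spread between diets. It read 931 and 699 in the normal arrays of diet #1 and 525 and 451 in the tumor arrays of diet #1, but 63.0 to 125 in the normal and 75.4 to 109 in the tumor arrays of diets #2 and #3. The diet #1 values cannot be told apart from the file format. Tumor was lower in 5 of 6 pairs, and the exception was the Dnmt+/+ pair of diet #3, from 63.0 to 98.9. The log2 difference was -0.30 ± 0.20 (limma adjusted p = 0.267). It passed without the Dnmt+/+ normal array of diet #3 (-0.48, limma adjusted p = 0.0307). A second Cfb probe set differed by -0.37 ± 0.23 and was also highest in diet #1, at 321 to 388. Once the diet means were taken off, the 2 Cfb probe sets did not follow each other (Pearson r = -0.11, n = 12 arrays).

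Cfb, C2 and C4 are textbook targets of inflammatory cytokines, interferon gamma among them. Of 12 other interferon gamma targets listed, 10 were tested, of which 4 fell in tumor, 0 rose and 6 were not called. Over all features 35.2% were called, 16.9% lower and 18.2% higher. The proteasome subunit genes Psmb9 and Psmb8 fell by 1.58 and 1.08 on the log2 scale (limma adjusted p = 0.000197 and 0.000211), the peptide transporter gene Tap1 fell by 0.93 (limma adjusted p = 0.00224) and the GTPase gene Igtp fell by 1.23 (limma adjusted p = 0.009). The sum of the list did not overlap, at 8934 to 13073 in normal and 4579 to 7338 in tumor. Cfb, C2 and the C4a and C4b probe set were not called beside them.

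The other genes of the complement system gave 1 call. Of 47 listed, 30 were on the array and 14 were tested. Among the 14, 1 rose and 0 fell, against 18.2% higher and 16.9% lower over all features. The median difference of the 14 was -0.015. The gene that rose was Clu, the clusterin gene, whose product keeps the terminal complex out of membranes. It read 216 to 1255 in normal and 3233 to 8327 in tumor, without overlap, a log2 difference of 3.24 ± 0.37 (limma adjusted p = 0.000204). A second Clu probe set differed by 4.25 and was at a floor of the files or of the analysis in 2 of 6 normal arrays. The pair means in diets #1, #2 and #3 were 3.73, 1.80 and 4.18 for the first Clu probe set and 6.23, 2.14 and 4.39 for the second. Diet #2 is the diet whose normal arrays carried pancreas genes, and the part of that tissue was not tested. The C1 inhibitor gene Serping1 differed by 0.15 ± 0.14 (limma adjusted p = 0.436). Among the lytic end of the cascade and its inhibitors, C8g differed by -1.02 ± 0.37 (limma adjusted p = 0.0618), Cd59b by -0.30 ± 0.11 (limma adjusted p = 0.0710) and Cd59a by -0.11 ± 0.13 (limma adjusted p = 0.562). None of the 6 receptor genes tested passed, against 35.2% of all features called in either direction. C3ar1, the receptor for C3a, was at -0.56 ± 0.30 (limma adjusted p = 0.179).

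**Figure D4:**
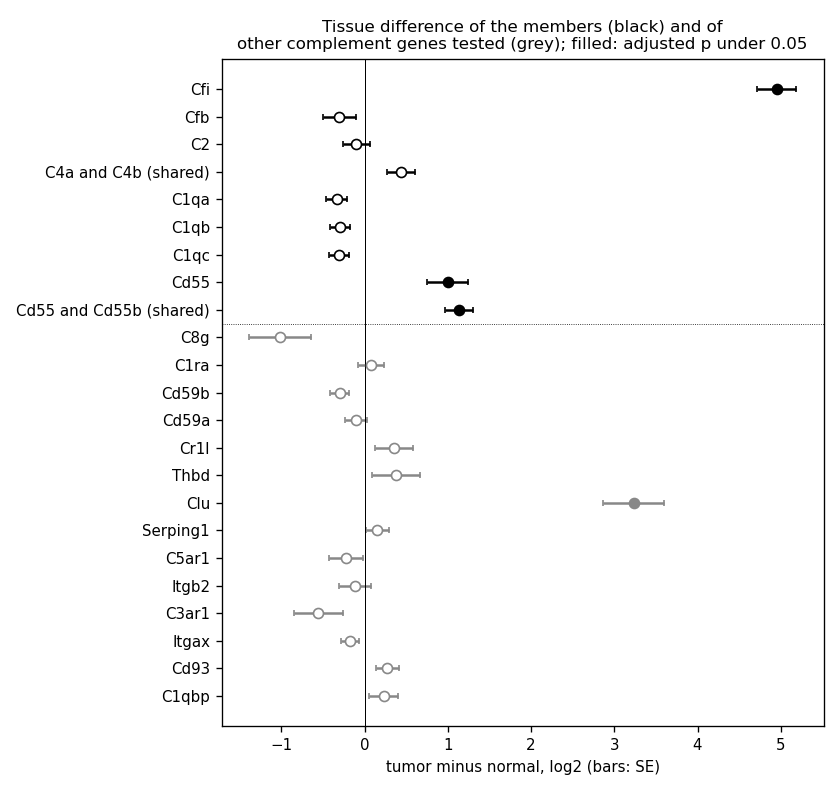
Log2 difference of tumor minus normal (horizontal axis, bars are SE, 6 arrays per tissue) for the 9 complement features (black) and the 14 other complement genes tested (grey). Filled points have a limma adjusted p under 0.05. Cfi at 4.95 and Clu at 3.24 lie far to the right, the Cd55 features at 1.00 and 1.13, and no point to the left of 0 is filled.

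The Dnmt comparison asked whether Dnmt+/- arrays differed from Dnmt+/+ arrays. None of the 9 features was called by limma, and 3 of 6400 features (0.0469%) were called in all. At an unadjusted p under 0.05 there were 1 of the 9 and 450 of the 6400. The lowest p was that of the probe set shared by Cd55 and Cd55b, which read 723, 925 and 636 in the Dnmt+/- normal arrays of diets #1, #2 and #3 against 362, 534 and 643 in the Dnmt+/+ ones. In tumor it read 1745, 1987 and 1140 against 1192, 1326 and 947. It was higher in Dnmt+/- in 5 of 6 matched comparisons, with a log2 difference of 0.53 ± 0.15 (unadjusted p = 0.006, limma adjusted p = 0.674). The Cd55 probe set differed by 0.36 ± 0.22 (limma adjusted p = 0.729).

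Diet #3 and diet #2 were deposited in the same format and were compared. The normal arrays of diet #2 were those that carried pancreas genes, and the part of that tissue in the differences below was not tested. None of the 9 features was called by limma, against 9.28% of all features. At an unadjusted p under 0.05 there were 2 of the 9 and 1660 of the 6400. C4a and C4b were higher in diet #3 in 4 of 4 matched arrays, by 0.56 ± 0.18 (limma adjusted p = 0.0783). C1qa was higher in 4 of 4 by 0.35 ± 0.14 (limma adjusted p = 0.138), and C1qc was lower in 4 of 4, at -0.27 ± 0.13 (limma adjusted p = 0.234). Without the diet #1 arrays, C4a and C4b (0.56, limma adjusted p = 0.00765) and C1qc (-0.27, limma adjusted p = 0.0416) passed. C4a and C4b also passed without the Dnmt+/+ normal (0.56, limma adjusted p = 0.0215) or the Dnmt+/+ tumor array of diet #1 (0.56, limma adjusted p = 0.0461), and the shared Cd55 and Cd55b probe set passed without the Dnmt+/+ normal array of diet #3 (-0.61, limma adjusted p = 0.0499). The tumor effect itself differed between these diets for 0 of the 9 features by limma, against 0.359% of all features. The calls behind that share were 23 higher and 0 lower. They included pancreas genes, such as Ctrb1 at 5.74 (limma adjusted p = 0.000141) and Cel at 6.39 (limma adjusted p = 0.000163), so that share is no plain rate of diet effects in tumor. At an unadjusted p under 0.05 there were 1 of the 9, Cfi, and 684 of the 6400.

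For each feature, the 3 named genes whose values ran most like it were taken by Pearson r over the 12 arrays after the diet means were removed. For Cfi they were Lamb3 (0.997), Stra6 (0.996) and Gch1 (0.994), which also rose in tumor. For the shared Cd55 and Cd55b probe set they were Glce (0.97), Kit (0.96) and Ppp2cb (0.95), and for the Cd55 probe set Car8 (0.94), Npc2 (0.93) and Topbp1 (0.93). For C1qa they were H2-Aa (0.96), Gfra3 (0.94) and H2-DMa (0.93), of which H2-Aa and H2-DMa belong to antigen presentation by MHC class II. For C1qb they were Stx8 (0.94), Ms4a6c (0.93) and Cyp2c29 (0.93), and for C1qc Tcf7l2, Ppp6c and Tgfbr3, each at 0.93. For C4a and C4b they were Clec11a (0.95), Nbl1 (0.93) and Hoxa5 (0.93). The likeness was weaker for Cfb, with Helb highest at 0.89, and for C2, with Baat highest at 0.89. These values include the tissue difference and are a description.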

How the data were processed

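Per the labels, RNA of 12 intestine and tumor samples was hybridised to MG_U74Av2 arrays, 1 sample each. The authors deposited a linear intensity per probe set, with software not given in the sources used here. Of 12488 probe sets, 66 controls were removed. Quantile normalization, a floor at the 20th percentile (44.8), log2, removal of the lowest 40% by mean and choice of the brightest probe set per gene gave 6400 features, 5648 of them named. The annotation gave 1 symbol to 10833 probe sets, several to 396 and none to 1193; 10817 matched RefSeq (GRCm38.p6) by Entrez ID.

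The tissue fit (limma 3.58.1, R 4.3.3) held terms for diet and genotype. The other fits took the code as random block by duplicateCorrelation (correlation -0.16 for genotype and diet, which makes differences between codes easier to call). P-values were adjusted by Benjamini-Hochberg over all features, with a threshold of 0.05. The members and lists were chosen with earlier results of these data known. Named genes were all members, other complement genes past the tissue threshold and the 3 genes most like each member; C8g, Cd59a, Cd59b, Serping1, C3ar1 and marker genes were named after their values were seen. The fits were tested on simulated data. The sample codes pair arrays by label: deviations from tissue means correlated at 0.46 to 0.68 within codes, and at -0.57 to -0.38 once diet and genotype were removed. The first range still holds the differences between diets and file formats. Removing diet and genotype itself pushes the second range to negative values. Neither range can thus say whether paired arrays are alike. No 2 arrays of a tissue correlated above 0.982. The alternatives changed the scaling, floor, filter, probe set rule, variance model, block and arrays used, each array being left out in turn.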

Additional observations from a re-analysis of the deposited data

Results flagged for a closer look

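In the group of 6 tumor arrays, the Dnmt+/+ array of diet #3 read 3104 for Cfi, apart from the other 5 at 1599 to 1989. Its gap to the nearest array was 0.67 of the range of the group on the log2 scale, above Dixon's 95% critical value. Without this array the Cfi difference between tissues was 4.76 ± 0.20 (limma adjusted p = 5.65e-06). Of 22 groups of 6 arrays examined over the complement probe sets, 1 held such a value, and chance gives about 1 in 20.

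The probe set shared by C4a and C4b lay lower in tumor in both pairs of diet #1, with a mean difference of -0.16, and higher in both pairs of diet #2 and of diet #3, with means of 0.62 and 0.86. The test of this difference, diet #1 minus the mean of the other diets, gave -0.90 ± 0.18 (limma adjusted p = 0.0727) and did not pass, while 1.91% of all features did. In this contrast diet #1 and its file format cannot be told apart.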

How the results depend on the processing

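Cfi kept its direction and call in all 26 alternatives, at 3.85 to 5.87 with a highest limma adjusted p of 0.0493, and Cd55 kept its direction in 26, at 0.32 to 1.82, with 4 calls lost. The shared Cd55 and Cd55b probe set lost its call in diet #1 alone (1.46) and in diet #3 alone (0.71), each with 4 arrays. The calls among the 9 members, 3 over all arrays, numbered 6 with median scaling (3 higher, 3 lower), 4 as deposited and in diet #2 alone, 2 without diet #2, 5 with the lowest 60% removed, 5 with trended robust variances, 1 in diet #1 alone, 1 in diet #3 alone and 3 to 5 with an array left out. Over all features, 2251 were called for tissue, 1365 without diet #2, 42 in diet #1, 1235 in diet #2 and 580 in diet #3 alone, and 1889 to 2180 with an array left out. The split of these calls depended on the scaling, with 1167 higher and 1084 lower, 847 and 1551 with median scaling and 1358 and 729 as deposited. For genotype, 3 features became 0 as deposited and without diet #1, 1 with no replicate block and 0 to 2 with an array left out. For diet, 594 became 6 as deposited, 274 with no replicate block, 1492 without diet #1 and 154 to 931 with an array left out, and the members called 2 without diet #1 and 0 to 1 with an array left out. The tissue by diet calls, 23, became 47 with median scaling and 61 with a floor at the 40th percentile. Signs turned for C2 (0.12 as deposited, 0.29 in diet #1 alone, -0.23 to 0.0066 with an array left out), C4a and C4b (-0.16 in diet #1 alone) and Lyz2 (-0.041 in diet #1 alone). With the sample code as a replicate block, 2105 features and 3 members were called for tissue, Cd55 at a limma adjusted p of 0.0274; the block changed no member's call, while the markers Lyz2 and Cd68 no longer passed. The cause of these changes was not tested, except that fits within a diet hold fewer arrays. Values at the floor, such as Cfi in normal tissue, give no order.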

Other observations

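Both genes of the membrane inhibitor CD59 on the array were higher in diet #3 than in diet #2. Cd59a differed by 0.66 ± 0.14 (limma adjusted p = 0.026) and Cd59b by 0.52 ± 0.13 (limma adjusted p = 0.0339), in a comparison that called 9.28% of all features. With every probe set kept and no filter, neither passed, at a limma adjusted p of 0.0528 for Cd59a and 0.0632 for Cd59b. The other alternatives were not run for these genes. Between tissues neither passed, as given above. Both were named after their values were seen, and diet #2 is the diet whose normal arrays carried pancreas genes.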
